A study of Mus musculus with 2 samples.

Results

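The 10 genes described here encode the enzymes that copy the nuclear genome: both subunits of primase (Prim1, Prim2), the catalytic and B subunits of DNA polymerase alpha (Pola1, Pola2), the catalytic and principal accessory subunits of polymerase delta (Pold1, Pold2) and of polymerase epsilon (Pole, Pole2), and 2 enzymes that mature Okazaki fragments, the flap endonuclease Fen1 and DNA ligase 1 (Lig1). They were chosen by name, for their role, and all 10 were found among the 17215 genes listed in each library. RNA sequencing was done on MC3T3-E1, a clonal pre-osteoblast line from mouse calvaria, cultured with formaldehyde at 100 µM in the first group and at 300 µM in the second. The groups shared the line, with no transgene or deletion named, and the medium. The sources used here do not state how long the cells were exposed, untreated cells were not analysed here, and a line that is 1 clone stands for osteoblasts only in part. Each group was 1 library, so differences have no replicate check and no p-value was computed.

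Polymerase alpha and primase form 1 complex, which lays down a short RNA-DNA primer. Polymerase epsilon then extends the leading strand and polymerase delta the lagging strand, in pieces called Okazaki fragments. Each piece displaces the primer of the one before it as a flap, Fen1 cuts the flap and Lig1 seals the nick. Genes of this machinery are expressed mainly in proliferating cells, many of them under E2F transcription factors around entry into S phase. In bulk RNA, a change in the share of cells in S phase and a change in RNA per such cell cannot be told apart.

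Because these genes are known as a group for E2F control, the letters of E2F-type sites were looked for in RefSeq promoter windows (assembly GRCm38.p6, 250 bases before to 50 after each annotated start). The 4 words TTTCCCGC, TTTGGCGC, TTTGCCGC and TTTCGCGC were searched on both strands. Windows were used for 8 of the 10 members, not for Prim2 and Pole. A word occurred in at least 1 window of 4 of these 8 members, against 5.16% of the 8238 compared genes with a window and 2.26% of all 32851 windows. The 4 sites are shown because they mark which members hold such letters. All 4 belong to members that were higher at 300 µM, as were 7 of the 8 with a window. They are printed 5′ to 3′ on the gene's strand with up to 11 flanking bases a side, and capitals mark the reverse complement of the word, which lay on the opposite strand in all 4. No 2 matches shared a window.
Lig1, chr7:13278841-13278870, plus strand: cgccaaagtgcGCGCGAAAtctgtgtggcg
Pold1, chr7:44548766-44548787, minus strand: cgtatcttgtgGCGGGAAAagc
Pole2, chr12:69228162-69228191, minus strand: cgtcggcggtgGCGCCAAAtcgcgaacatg
Pola1, chrX:93632275-93632304, minus strand: gtcatcacaggGCGCCAAAtgcactcccgc
The matched word began at position 27 after the second of 3 annotated Lig1 starts, at 40 in Pold1, at 11 in Pole2 and at -138 in Pola1, counted from the first transcribed base as 1. The windows of Pola2, Prim1, Pold2 and Fen1 held none of these letters, which says nothing of whether the factor binds there.

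Levels are in FPKM, a count of fragments divided by transcript length and by the number of mapped fragments in the library, so they can be set side by side between genes. Differences between the doses are log2((FPKM at 300 µM + 1)/(FPKM at 100 µM + 1)), called the log2 ratio, and a log2 ratio of at least 1 in size counts as 2-fold. Of the 10 members, 8 were at least 2-fold higher at 300 µM, 1 was at least 2-fold lower (Fen1) and 1 lay between (Pole). Among the 10123 genes whose mean over both libraries reached 1 FPKM, a filter that all 10 members passed, 6.09% were that much higher and 29.8% that much lower. The median log2 ratio was 1.06 over the members and -0.30 over all genes compared. The members' summed level was 223 FPKM at the lower dose and 399 FPKM at the higher.

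How many members passed 2-fold depended on the scale, since 5 of the 8 had log2 ratios of only 1.02 to 1.09. After centring on the median gene the same 8 were higher and Fen1 lower (14.5% and 22.3% of all genes). With both libraries scaled to the same summed FPKM, 2 members were higher, Prim2 and Pold1, and Fen1 lower (2.16% and 38% of all genes). Longer transcripts had lower ratios across the table, by 0.44 per doubling of length. With that trend and the one with GC content removed, 5 members were higher (Pola1, Pola2, Prim2, Pold1 and Lig1) and Fen1 lower, against 4.83% and 27.7% of genes. With a pseudocount of 5 in place of 1, 3 members were higher and Fen1 lower, against 2.55% and 16.1% of genes.

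**Figure D1:**
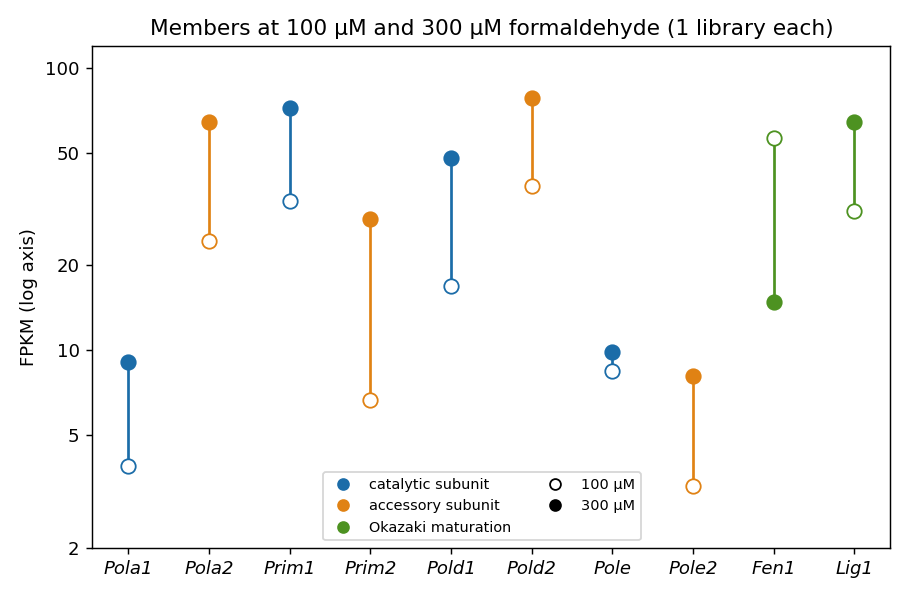
Level of each member in FPKM (log axis) in the library at 100 µM (open circles) and the library at 300 µM (filled circles), coloured by role and joined by a line. The filled circle lies above the open one for 9 members and below it for Fen1, which went from 56.7 to 14.8 FPKM.

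The primase subunits were both higher at 300 µM, and unequally so. Prim1, the catalytic subunit that joins the first ribonucleotides, stood at 33.8 FPKM at the lower dose and 72.4 FPKM at the higher, a log2 ratio of 1.07. Prim2, the large subunit that holds the primer and hands it to polymerase alpha, stood at 6.68 and 29.1 FPKM, a log2 ratio of 1.97. Prim2 thus had the largest ratio of the 10 members, above that of 99.5% of all genes compared. An estimated 244 reads at 100 µM and 1096 at 300 µM lay behind Prim2, and its fold of 4.36 had a 95% interval of 3.80 to 5.04 that covers counting error only. Prim1 exceeded Prim2 by 5.06 times at 100 µM and by 2.48 times at 300 µM, so the messages of the heterodimer were closer to each other at the higher dose.

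Both polymerase alpha genes were more than 2-fold higher, from very different levels. Pola1, which encodes the catalytic subunit, stood at 3.91 FPKM at the lower dose and 9.07 FPKM at the higher (log2 ratio 1.04). Pola2, the B subunit that helps tether the complex at the replisome, stood at 24.3 and 64.4 FPKM (log2 ratio 1.37). Pola2 exceeded Pola1 by 6.23 times at 100 µM and 7.10 times at 300 µM. The fold change of Pola1 relative to Pola2 was 0.877, with a counting interval of 0.765 to 1.01, so the shift was not detectable at this depth. The difference of the 2 log2 ratios, Pola1 minus Pola2, was -0.33 with the pseudocount of 1 used here. It was -0.21 with 0.1 and -0.58 with 5. Its sign turned, to 0.29, once the trend with length and GC content was removed, Pola1 having the longer transcript (5346 bases against 2421).

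Polymerase delta differed in that its catalytic gene had the larger ratio. Pold1, which carries both the polymerase and the proofreading exonuclease, stood at 16.9 FPKM at the lower dose and 48.2 FPKM at the higher (log2 ratio 1.46). Pold2, the B subunit that links it to the smaller subunits, stood at 38.2 and 78.2 FPKM (log2 ratio 1.02) and was the most abundant member at 300 µM. Pold2 exceeded Pold1 by 2.26 times at 100 µM and 1.62 times at 300 µM. The fold change of Pold1 relative to Pold2 was 1.39, with a counting interval of 1.26 to 1.54. The remaining subunits did not follow. Pold3, which binds the sliding clamp, stood at 7.33 and 3.41 FPKM (log2 ratio -0.92), and Pold4, the smallest subunit, at 63.7 and 87.4 FPKM (log2 ratio 0.45).

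The polymerase epsilon genes were separated by their size of change. Pole, the catalytic subunit, stood at 8.43 FPKM at the lower dose and 9.91 FPKM at the higher. Its log2 ratio of 0.21 was the smallest of the members in size, and its sign turned with equal sums (-0.13). Pole2, the B subunit, stood at 3.31 and 8.15 FPKM (log2 ratio 1.09), the lowest level of the 10 in both libraries. Only an estimated 105 reads supported Pole2 at 100 µM, with a counting interval of 85.9 to 127 reads, and 11.8% of the 50-base words of its transcript occur in the overlapping gene model Gm49384. Pole exceeded Pole2 by 2.55 times at 100 µM and by 1.22 times at 300 µM. The fold change of Pole relative to Pole2 was 0.477, with a counting interval of 0.376 to 0.607. The difference of the 2 log2 ratios, Pole minus Pole2, was -0.88 with the pseudocount of 1. It was -0.01 after removal of the trend with length and GC content, Pole having the longest transcript of the members (7163 bases, against 1706 for Pole2). The histone-fold subunits stood at 79.5 and 95.8 FPKM (Pole3) and at 59.1 and 62.4 FPKM (Pole4), with log2 ratios of 0.27 and 0.08 whose signs turn with equal sums.

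By class, all 4 accessory genes and 3 of the 4 catalytic genes were at least 2-fold higher, against 6.09% of all genes. Their median log2 ratios were 1.23 and 1.06. With equal sums 1 of 4 in each class was higher (2.16% of all genes). With a pseudocount of 5, 2 accessory genes and 1 catalytic gene were higher (2.55%). With the trend with length and GC content removed, 2 of 4 in each class were higher (4.83%). The order of the medians then turned, to 1.002 for accessory and 1.13 for catalytic genes. The accessory gene had the larger ratio in primase with and without that trend, and the catalytic gene in polymerase delta. In polymerases alpha and epsilon the larger accessory ratio did not hold once the trend was removed. The accessory gene was the more abundant one in polymerases alpha and delta, and the less abundant one in primase and polymerase epsilon, in both libraries.

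**Figure D2:**
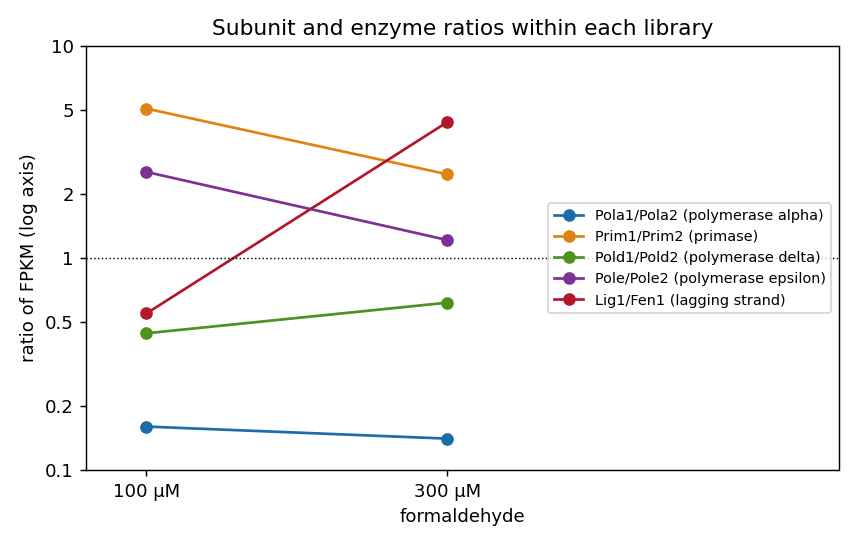
Ratio of FPKM (log axis) of the first to the second gene named in the key, within the library at 100 µM and within that at 300 µM; the dotted line marks equal levels. Prim1/Prim2, Pold1/Pold2 and Pole/Pole2 came nearer to 1 at 300 µM and Pola1/Pola2 did not, while Lig1/Fen1 crossed the line, from 0.549 to 4.38.

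The enzymes of Okazaki fragment maturation went in opposite directions. Fen1 stood at 56.7 FPKM at the lower dose and 14.8 FPKM at the higher, a fold of 0.261 (counting interval 0.239 to 0.284) and a log2 ratio of -1.87. That ratio lay above those of 11.3% of all genes compared. Fen1 was the most abundant of the 10 members at 100 µM and the seventh at 300 µM. Lig1, which seals the nick that Fen1 leaves, stood at 31.1 and 64.7 FPKM (log2 ratio 1.03). Relative to Fen1, Lig1 was 0.549 times as abundant at 100 µM and 4.38 times at 300 µM, a change of 7.98-fold (counting interval 7.21 to 8.83). Fen1 stayed at least 2-fold lower under each of the scalings and pseudocounts tried, from -1.48 with a TMM factor to -2.22 with equal sums.

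The Fen1 locus sets a limit to its value. In GENCODE release M21, 80.5% of the exonic bases of the Fen1 transcript used here overlap the antisense gene Gm10143, not analysed here, and 3.41% overlap Tmem258, also on the opposite strand, which stood at 196 FPKM at the lower dose and 403 FPKM at the higher. Whether the library kept the strand is not given in the sources used here, and without it reads of Fen1 and of an antisense partner cannot be told apart. The part of these partners in the Fen1 value was not tested. Fen1 also has 3 exons in its transcript, the other members 11 to 49. For Lig1, 6.84% of exonic bases overlap the opposite-strand gene Zswim9, which stood at 2.04 and 0.33 FPKM.

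**Figure D3:**
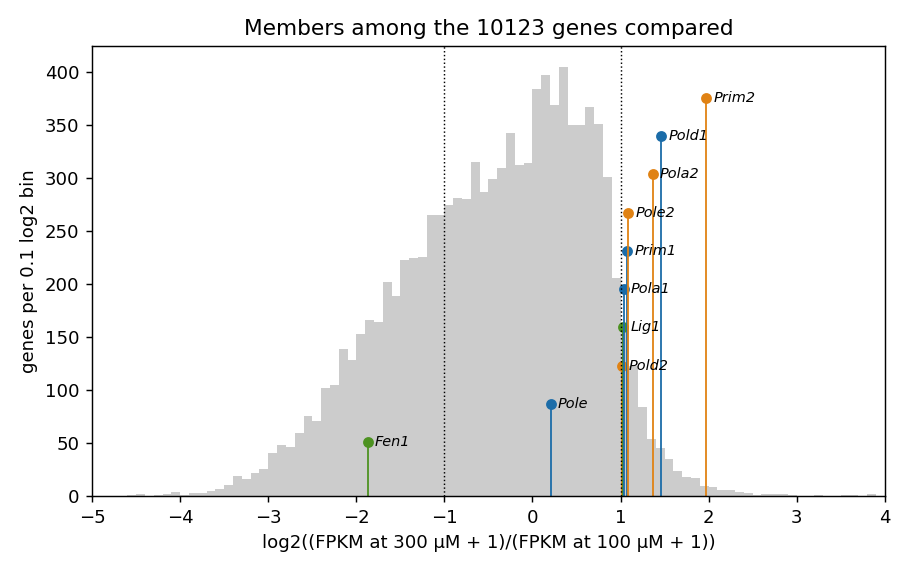
Histogram of the log2 ratio (300 µM over 100 µM, pseudocount 1) of the 10123 genes compared, values above 4 drawn in the last bin, with each member as a labelled stem coloured by role as catalytic (blue), accessory (orange) or Okazaki maturation (green); stem heights only separate the labels. Dotted lines mark 2-fold, and 8 members lie right of the upper line and Fen1 left of the lower one.

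The order of the members by level was otherwise much alike in both libraries. At 100 µM it ran Fen1, Pold2, Prim1, Lig1, Pola2, Pold1, Pole, Prim2, Pola1 and Pole2. At 300 µM it ran Pold2, Prim1, Lig1, Pola2, Pold1, Prim2, Fen1, Pole, Pola1 and Pole2. Lig1 and Pola2 at 300 µM (64.7 and 64.4 FPKM) were neighbours that could not be ranked, and there is no replicate spread by which to rank any others. The members' levels spanned 17.1-fold at 100 µM and 9.60-fold at 300 µM. Among all genes compared, Prim2 moved from above 31.4% of genes at 100 µM to above 76.2% at 300 µM, and Fen1 from above 86.4% to above 62.8%.

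Other genes of DNA replication and synthesis were taken from 13 lists, chosen by function with 105 genes, of which 102 were compared. Of these, 9 were at least 2-fold higher and 26 lower, or 8.82% and 25.5%, near the shares over all genes, and their median log2 ratio was 0.13. After centring on the median gene the counts were 23 and 17 of 102, against 14.5% and 22.3% of all genes. There a larger share of these genes than of all genes was higher. With equal sums the counts were 2 and 32, against 2.16% and 38% of all genes.

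Genes of proteins that work directly beside the polymerases mostly lay within 2-fold. Among 11 genes of the sliding clamp and its loaders 2 were higher and 2 lower (median log2 ratio 0.69), against 6.09% and 29.8% of all genes. Pcna, the clamp that holds polymerase delta on DNA and stimulates Fen1, stood at 283 FPKM at the lower dose and 459 FPKM at the higher, with 31.8% of its words shared with copies such as Pcna-ps2. Dscc1 and Chtf8 belong to the same alternative loader, which acts with polymerase epsilon, and went opposite ways, at 2.53 and 14.5 FPKM (log2 ratio 2.14) and at 86.1 and 21.1 FPKM (-1.98). Rfc2, a loader subunit, had 1.11, and Atad5, the clamp unloader, stood at 5.94 and 0.68 FPKM (-2.05). Of the 3 genes of RPA, the complex that coats single-stranded DNA, 1 was higher: Rpa3 had a log2 ratio of 1.35 and Rpa1 0.81. Rpa2 had -0.22, a sign that turns after centring.

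Nucleases that remove RNA primers and flaps did not share a direction. Exo1, a 5′ nuclease of the same family as Fen1, stood at 5.79 FPKM at the lower dose and 0.55 FPKM at the higher (log2 ratio -2.13). It was the only 1 of 5 compared genes of its list beyond 2-fold (median 0.64), where 29.8% of all genes were that much lower. The 3 subunits of RNase H2, which cuts RNA primers, were named after their values were seen: Rnaseh2a, Rnaseh2b and Rnaseh2c had log2 ratios of 0.66, 0.99 and 0.64. Dna2, which trims long flaps, stood at 1.34 and 0.28 FPKM, below the level compared.

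The helicase that unwinds DNA ahead of the polymerases and the genes that license and fire origins had medians of opposite sign. Of 11 helicase genes 3 were higher, Gins2, Gins1 and Mcm6 (log2 ratios 1.35, 1.15 and 1.03), and 1 lower, Gins3 (-1.59), with a median of 0.82. Mcm2 had 0.93. Over all genes 6.09% were higher and 29.8% lower. The helicase genes higher numbered 6 after centring (14.5% of all genes) and 0 with equal sums (2.16%). They numbered 2 with the trend with length and GC content removed (4.83%). Of 12 origin genes 0 were higher and 4 lower, the kinase activator Dbf4 (-1.42) and the origin recognition genes Orc2 (-1.23) and Orc1 (-1.20) furthest, with a median of -0.63, against 29.8% lower over all genes. After centring only Dbf4 of the 12 was lower by 2-fold (-1.13). The 1 then higher was Gmnn (1.02), which encodes an inhibitor of licensing. A list of 8 scaffold and fork protection genes also takes in genes of origin firing, such as Ticrr. Of these 8, 0 were higher and 2 lower, Ticrr (-1.67) and Clspn (-1.03), near the 29.8% lower over all genes. Their median was -0.38, beside -0.30 over all genes, and after centring only Ticrr was lower by 2-fold (-1.37). Of 12 genes of deoxynucleotide supply, Tk1 (thymidine kinase) was higher (1.14) and Rrm2b lower (-1.19), and the ribonucleotide reductase gene Rrm2 had -0.21, a sign that turns after centring.

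Several genes of other DNA polymerases and ligases were lower, as were 29.8% of all genes compared, with 6.09% higher. Among 7 translesion genes compared, 0 were higher and 3 lower, with a median of -0.32, near the -0.30 of all genes. After centring 1 was higher and 2 lower, against 14.5% and 22.3% of all genes. Polh, the polymerase that bypasses ultraviolet lesions, stood at 22.8 and 4.92 FPKM (log2 ratio -2.01), and Rev1 and Rev3l had -1.54 and -1.04. Of 9 repair polymerase and ligase genes 1 was higher, Xrcc4 (1.30), and 3 were lower, with a median of 0.20. The ligase genes Lig4, of end joining, and Lig3, of base excision and mitochondrial repair, had -2.47 and -1.10, against 1.03 for Lig1, and the end-joining polymerase gene Polm had -2.08.

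Most genes that copy mitochondrial DNA were lower, unlike 8 of the 10 members. Of 7 compared, 0 were higher and 5 lower by 2-fold, against 6.09% and 29.8% of all genes. Their median log2 ratio was -1.54, and 4 were lower after centring (22.3% of all genes). Polg, the mitochondrial replicative polymerase, stood at 15.6 FPKM at the lower dose and 4.68 FPKM at the higher (log2 ratio -1.54). Twnk, the mitochondrial helicase, stood at 25.1 and 1.79 FPKM (-3.23), and Tfam and Polrmt had -1.90 and -1.80. Ssbp1, the mitochondrial single-strand binding protein, named after its value was seen, had 0.60. Topoisomerase genes had 0 of 5 higher and 2 lower, Top1 (-1.53) and Top3a (-1.04). After centring 1 of these 5 was lower, and 1 with the trend with length and GC content removed, where their median was 0.02. Chromatin assembly genes had 1 of 8 higher, Chaf1b (1.16), and 2 lower, the histone chaperone genes Supt16 (-1.63) and Asf1a (-1.62). Over all genes 6.09% were higher and 29.8% lower, so counts this small do not set either list apart.

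**Figure D4:**
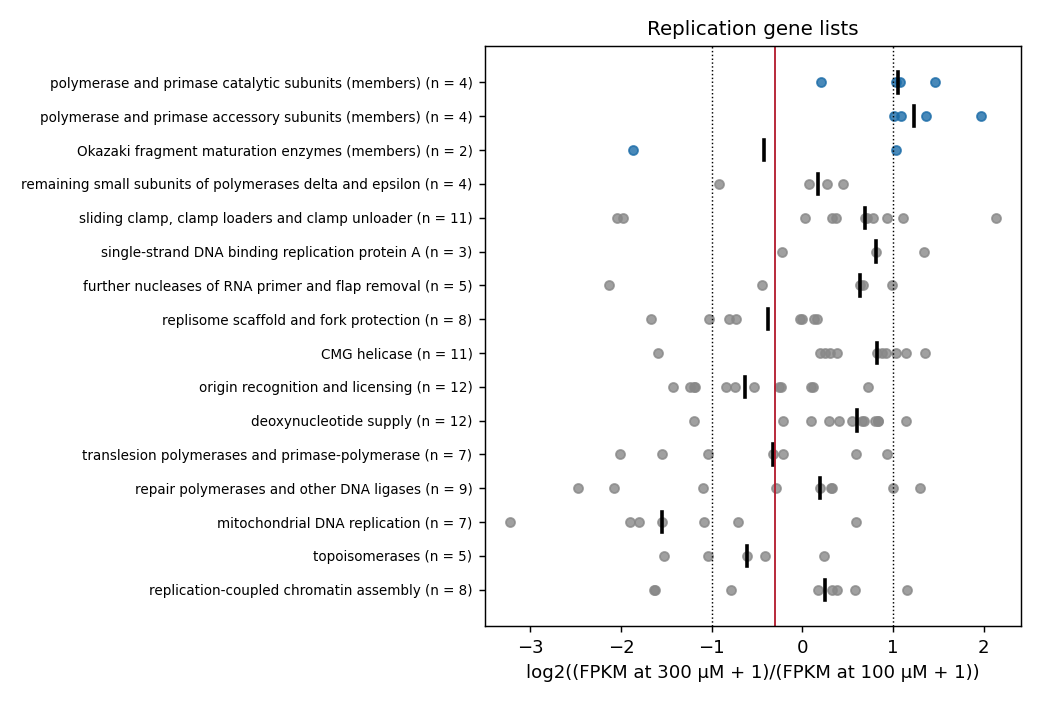
Log2 ratio (300 µM over 100 µM, pseudocount 1) of each compared gene in the lists of members (blue) and of further replication genes (grey), with the list median as a black bar, the median of all genes compared as a red line and 2-fold as dotted lines. The accessory subunits lie wholly beyond the upper dotted line, and 5 of 7 mitochondrial genes beyond the lower one.

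The libraries held an estimated 18500000 mapped fragments at 100 µM and 19000000 at 300 µM, and the summed FPKM was 532944 and 691521. Osteoblast markers were present in part: the collagen genes Col1a1 and Col1a2 stood at 1714 to 2336 FPKM in both libraries, while Alpl was near 1 FPKM and Bglap was listed at 0 at 100 µM. Of 9 osteoblast markers 8 were compared, and 0 were beyond 2-fold. The sum over 6 macrophage and blood cell markers was 16.3 and 27.7 FPKM, mostly Lyz2, with Adgre1 listed at 0 in both. The sum over 5 adipocyte markers was 5.29 and 2.03 FPKM, with Plin1 and Fabp4 listed at 0 in both, and over 5 endothelial markers 0.16 and 0.10 FPKM, with Kdr at 0 in both.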

How the data were processed

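Each library came as 1 table of NCBI gene numbers and FPKM, deposited by the authors with 2 decimals, per the file headers. The submitters' processing notes name Bowtie2 and RSEM. Build, annotation and strand setting were not given in the sources used here. Symbols were matched by gene number to RefSeq GRCm38.p6 (17179 of 17215). Length, GC content, exons and shared 50-base words came from 1 GENCODE M21 transcript per gene, the coding one with the longest coding sequence.

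Depth was read from genes of 1 transcript: with 1 read worth 54 bases of FPKM times length at 100 µM and 52.5 at 300 µM, 70.2% of 131 and 70.4% of 115 low values lay within 0.12 of a whole read. Reads per member are estimates from these. Intervals are 95% (exact Poisson for reads, exact binomial for folds, normal for ratios of folds) and cover counting error only; no molecular identifiers are named, so reads need not be independent molecules.

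Members and lists were chosen with earlier results of these data known. Beside the 10 members, the text names up to 3 genes per list and direction beyond 2-fold and 9 fixed genes. Outside that rule it names Rpa2, Dna2, Gmnn, Ssbp1, the RNase H2 genes, cell type markers and genes that overlap members. The ratio step was tested on simulated data. Alternatives were pseudocounts, filters, sizes, scalings and a length and GC trend. Tools were Python 3.11.15 with scipy 1.17.1, pandas 2.3.3, numpy 2.4.6 and matplotlib 3.10.9.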

Additional observations from a re-analysis of the deposited data

How the results depend on the processing

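The count of members lower was 1, Fen1, under all 10 alternatives, among them sizes of 1.5-fold and 3-fold in place of 2-fold. The share of all genes lower was 29.8% in the main setting. Under the alternatives it ran from 16.1% (pseudocount of 5) to 41.6% (1.5-fold). The count higher, 8, was 3 with a pseudocount of 5 (2.55% of all genes), 2 with equal sums (2.16%), 5 with the length and GC trend removed (4.83%) and 1 at a 3-fold size (1.22%), and it stayed within 1.5 times under the other alternatives. The members' median log2 ratio (1.06) was 1.36 after centring on the median gene, 1.44 with a TMM factor, 0.70 with equal sums and 0.93 with the trend removed. Centring and the TMM factor raise every log2 ratio by 0.30 and 0.39. Equal sums, applied before the pseudocount, lower it by up to 0.38, less for genes low at 300 µM, and the median gene by 0.32.

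Of the catalytic minus accessory differences in log2 ratio, polymerase alpha (-0.33) was -0.58 with a pseudocount of 5 and 0.29 with the trend removed, polymerase delta (0.45) was 0.90 with the trend removed, and polymerase epsilon (-0.88) was -0.51 and -0.011. Primase (-0.90) was -0.55 with a pseudocount of 5. Lig1 minus Fen1 (2.90) was 2.59 and 3.09. A mean of at least 10 FPKM left out Pola1, Pole and Pole2, so polymerases alpha and epsilon gave no value there.

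For the 13 further lists, shares of all genes are given in brackets. The 9 genes higher (6.09%) became 23 after centring (14.5%), 28 with the TMM factor (17.8%) and 2 with equal sums (2.16%). They became 5 with the trend removed (4.83%), 30 at 1.5-fold (18.8%) and 1 at 3-fold (1.22%). The 26 lower (29.8%) became 12 with a pseudocount of 5 (16.1%), and 10 of 70 at a mean of at least 10 FPKM (21.4%). They became 17 after centring (22.3%), 17 with the TMM factor (20.3%) and 13 at 3-fold (16.3%). No replicate could be left out and no paired analysis was possible because each dose has 1 library. Depth limits Pole2 most.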
